A study of Mus musculus with 6 samples.

Results

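The collagen gene family was taken as every gene whose symbol begins with Col, followed by the number of the collagen type, the letter a and the number of the chain. The array held 44 such genes among 19938 genes named by a single symbol. Of these, 33 had a mean log2 signal over the 6 arrays that reached 5.87, the midpoint of the ranked gene means, and entered the comparisons together with all other genes past that floor, 9969 in total. The other 11 are described by their levels. Each gene was represented by 1 probe set, and for Col6a5 and Col6a6, which had 2 each, the brighter was used. No collagen shared a probe set with another gene.

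RNA came from 3T3-L1, a cloned mouse fibroblast line that turns into adipocytes under hormonal induction, on 1 array for each of 6 conditions. The 3 fibroblast arrays came from undifferentiated cells in DMEM with 10% calf serum, 1 without a compound and 1 each exposed over 3 days to adenine and to AICAR at 0.5 mM. The 3 adipocyte arrays came from confluent cells induced in 10% fetal bovine serum with dexamethasone (1 µmol/l), insulin (1 µg/ml) and the phosphodiesterase inhibitor IBMX (115 µg/ml) over 3 days, then kept 3 more days with insulin. Those cells received no compound, adenine or AICAR, again at 0.5 mM, in the induction medium only, and had been without it for 3 days at the end. Adenine is a purine base that cells salvage to AMP, and AICAR is a ribonucleoside that cells phosphorylate to a mimic of AMP. Cell state therefore cannot be told apart from the inducing drugs and the change of serum. With 1 array per condition, a difference between 2 arrays has no replicate check and no p-value.

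Collagens are triple helices of 3 chains built on a repeat with glycine at regular steps along each chain. Fibrillar collagens (types I, II, III, V, XI, XXIV and XXVII) form the banded fibrils of connective tissue, and the FACIT collagens sit on the surface of those fibrils or link them to other matrix. Type IV chains form the sheet of the basement membrane, which surrounds each fat cell in adipose tissue, and type VI chains form beaded filaments that are abundant there. The common helix of type I holds a pair of Col1a1 chains and a single Col1a2 chain.

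The array medians lay between 5.41 and 5.49. Of 10 adipocyte markers, 9 were above the floor on every adipocyte array and 3 on every fibroblast array. Of 9 fibroblast and preadipocyte markers on the array, 8 were above it on all 6. Defining markers of bone cells (0 of 3 on the array) and endothelial cells (0 of 5) were below it throughout. Of 7 cartilage markers 1, Sox9, was above it, and 0 or 1 of 4 leukocyte markers, 1 or 2 of 5 muscle markers and 0 or 1 of 5 epithelial markers were.

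The widest differences over the 6 arrays lay in a limited number of genes. Of the 33 tested collagens, 13 spanned at least 1 log2 unit from their lowest to their highest array (39.4%), against 27.0% of all tested genes, and 15 spanned less than 0.5. The 13 were Col1a1, Col1a2, Col3a1, Col5a2 and Col11a1 among the fibrillar chains, Col12a1 and Col20a1 among the FACIT chains, Col4a2 and Col4a5 of the basement membrane, the 3 type VI chains Col6a1, Col6a2 and Col6a3, and Col8a1. Signals of different probe sets are not comparable as amounts of RNA, so each gene is set only against itself.

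**Figure D1:**
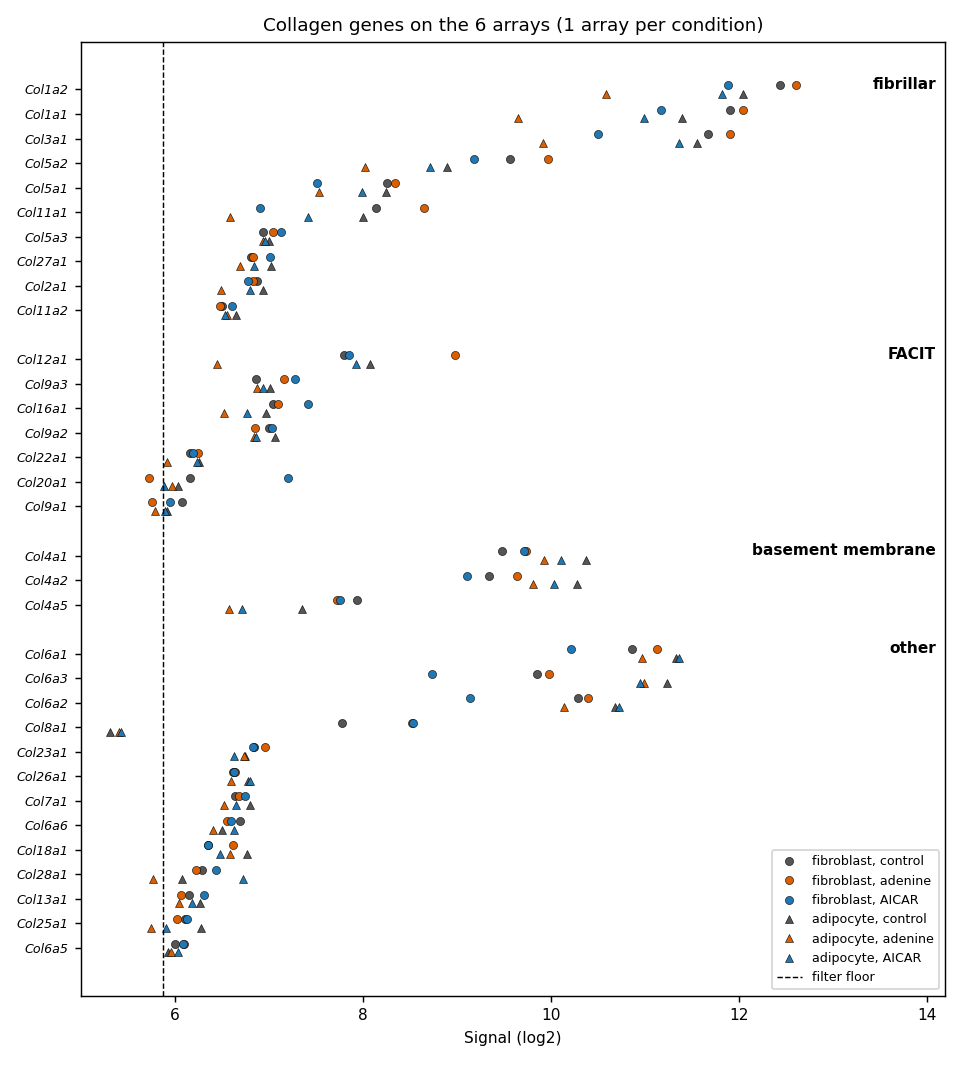
Log2 signal (x axis) of each of the 33 tested collagen genes (y axis, grouped by class) on the 6 arrays, with circles for fibroblasts, triangles for adipocytes, grey for control, orange for adenine and blue for AICAR, 1 array each; the dashed line is the floor at 5.87. The orange triangle of Col1a1, at 9.65, stands to the left of its other 5 points, and the 3 triangles of Col8a1 lie below the floor.

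The 11 collagens under the floor were the fibrillar Col24a1, the FACIT Col14a1 and Col19a1, the basement membrane Col4a3, Col4a4 and Col4a6, the type VI Col6a4, and Col8a2, Col10a1, Col15a1 and Col17a1. Their levels ran from 4.16 to 6.32, and 0 of the 11 differed by 2-fold in any of the 9 pairs of arrays compared. Such differences were also rare among all 9969 genes below the floor. The most were 131 lower and 97 higher, in adipocytes against fibroblasts with adenine. The fewest were 6 lower and 7 higher, with AICAR against control in adipocytes. Col15a1, a basement membrane zone collagen, was nearest to the floor, with a mean of 5.83. It read 5.50, 5.67 and 5.46 on the control, adenine and AICAR arrays of fibroblasts and 6.15, 6.32 and 5.90 on those of adipocytes, so that all adipocyte arrays were above all fibroblast arrays. Col9a1, a FACIT chain of cartilage, was the nearest above the floor, with a mean of 5.89 and no difference of 2-fold.

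Between cell states, Col8a1 was lower in adipocytes under all 3 media. It encodes a chain of type VIII, a short-chain collagen that forms networks. It read 7.78, 8.52 and 8.53 in fibroblasts (control, adenine, AICAR) and 5.30, 5.41 and 5.42 in adipocytes. The adipocyte levels were below the floor and the groups did not overlap. The gene passed the filter through its fibroblast arrays alone, which itself requires a difference. Set against the floor in place of the adipocyte signal, the fibroblast level was at least 3.74-fold higher without compound, 6.26-fold with adenine and 6.30-fold with AICAR.

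Col6a3, the long chain of type VI, was higher in adipocytes under all 3 media. It read 9.85, 9.99 and 8.74 in fibroblasts and 11.23, 10.99 and 10.95 in adipocytes, without overlap, a difference of 2.61-fold without compound, 2.01-fold with adenine and 4.63-fold with AICAR. Its partners Col6a1 and Col6a2, which lie beside each other on chromosome 10 (GRCm38.p6 chr10:76708792-76726044 and chr10:76595756-76623630), overlapped between states. Col6a1 read 10.86, 11.13 and 10.21 in fibroblasts and 11.34, 10.97 and 11.36 in adipocytes. Col6a2 read 10.29, 10.40 and 9.14 in fibroblasts and 10.68, 10.15 and 10.72 in adipocytes. On the fibroblast side the AICAR array was the lowest for all 3 chains.

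The basement membrane chains went different ways between states. Col4a1 read 9.48, 9.73 and 9.71 in fibroblasts and 10.38, 9.92 and 10.11 in adipocytes. Col4a2, with which it forms the common type IV heterotrimer, read 9.35, 9.64 and 9.11 in fibroblasts and 10.28, 9.81 and 10.03 in adipocytes. Both were above all fibroblast arrays on every adipocyte array, by 0.89 and 0.94 log2 units without compound but only 0.19 and 0.17 with adenine. Col4a5, on the X chromosome, was lower in adipocytes, at 7.94, 7.73 and 7.75 in fibroblasts against 7.35, 6.58 and 6.71. It was lower by 2.22-fold with adenine and by 2.06-fold with AICAR. Col4a6, whose start lies 1343 bases from that of Col4a5 on the other strand, was below the floor on all arrays (4.95 to 5.29).

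Col4a1 and Col4a2 are read in opposite directions on chromosome 8, and the starts used here, at 11312826 and 11312805, are 21 bases apart. The RefSeq gene record of Col4a1 reaches further, to 11312889, and overlaps that of Col4a2 by 85 bases. The 250 bases before each start are shown because the starts are adjacent and both chains were higher on all adipocyte arrays. Both come from RefSeq (GRCm38.p6) and are written 5′ to 3′ along the gene. Col4a1 is at chr8:11312827-11313076 on the minus strand and Col4a2 at chr8:11312555-11312804 on the plus strand. Each window lies inside the gene record of the other chain (Col4a1 chr8:11198423-11312889, Col4a2 chr8:11312805-11449287). The boxes marked in them are therefore within gene records and not between genes. Capitals mark CCAAT and GGGCGG on either strand, the boxes that NF-Y and Sp1 are known to bind.
Col4a1: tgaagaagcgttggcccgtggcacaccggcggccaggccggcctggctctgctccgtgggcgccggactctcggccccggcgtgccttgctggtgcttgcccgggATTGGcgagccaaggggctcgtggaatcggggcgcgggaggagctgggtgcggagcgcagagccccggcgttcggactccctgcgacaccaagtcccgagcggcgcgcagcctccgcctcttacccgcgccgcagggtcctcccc
Col4a2: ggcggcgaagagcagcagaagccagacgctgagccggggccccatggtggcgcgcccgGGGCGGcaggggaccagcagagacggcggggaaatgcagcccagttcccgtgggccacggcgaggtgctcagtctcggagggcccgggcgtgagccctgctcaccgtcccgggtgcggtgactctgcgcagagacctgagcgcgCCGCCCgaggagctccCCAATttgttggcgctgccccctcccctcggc
ATTGG began 145 bases before the start in Col4a1. In Col4a2, GGGCGG began 192 and CCGCCC 48 bases before the start, and CCAAT 32 bases before it.

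Without compound, 1 of 33 collagens was at least 2-fold higher in adipocytes, Col6a3, where 2.88% of all tested genes were, and 1 was 2-fold lower, Col8a1, against 4.27%. With adenine the counts were 1 higher, again Col6a3, against 6.75%, and 8 lower against 8.47%. The 8 were Col1a1, Col1a2, Col3a1, Col5a2, Col11a1, Col12a1, Col4a5 and Col8a1. With AICAR they were 3 higher, Col6a1, Col6a2 and Col6a3, against 5.93%, and 3 lower, Col4a5, Col8a1 and Col20a1, against 4.6%. Col8a1 was among the lower genes in all 3 media. It passed the filter through its fibroblast arrays alone, so it adds no support to these counts. The median difference of the tested collagens was 0.07 without compound, -0.22 with adenine and -0.05 with AICAR, and that of all tested genes was 0.02, 0.03 and 0.00.

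Across the media, all 3 adipocyte arrays were above all 3 fibroblast arrays for 3 collagens (Col4a1, Col4a2 and Col6a3), against 22.1% of all tested genes, and below them for 5 (Col4a5, Col5a2, Col8a1, Col16a1 and Col23a1), against 19.9%. An additive model over the 6 arrays in limma, with state and medium as terms, gave 1 collagen higher in adipocytes (5.22% of all tested genes) and 2 lower (5.37%) at an adjusted p under 0.05. Its error is the departure of the 6 arrays from additivity, not the spread between cultures. Of the 2 lower, Col8a1 was at -2.90 (SE 0.185, limma adjusted p = 0.00321), with adipocyte levels under the floor. Since it passed the filter through fibroblasts alone, its place among the 5 without overlap and its call are descriptions and add no support to either count. Col4a5 fell by 0.93 (SE 0.170, limma adjusted p = 0.0303). Col6a3 rose by 1.53 (SE 0.251, limma adjusted p = 0.0246). Col4a2, at 0.68 (SE 0.203, limma adjusted p = 0.0936), and Col5a2, at -1.03 (SE 0.308, limma adjusted p = 0.0935), did not pass. Without the pair of control arrays the limma adjusted p was 0.0588 for Col8a1, 0.136 for Col6a3 and 0.112 for Col4a5, and for Col4a5 it was 0.104 when the adenine arrays were left out and 0.0634 when the AICAR arrays were. Over all alternatives that tested them, it ran from 0.00232 to 0.0588 for Col8a1, from 0.0139 to 0.136 for Col6a3 and from 0.0297 to 0.112 for Col4a5.

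In adipocytes given adenine during induction, the fibrillar Col1a1, Col1a2, Col3a1 and Col11a1 and the FACIT Col12a1 were lower than in control adipocytes. Of the 33 collagens these 5 were at least 2-fold lower, where 2.4% of all tested genes were, and 0 were higher, where 1.24% were. Col1a1, a chain of the most abundant collagen of connective tissue, read 11.40 in control, 9.65 in adenine-treated and 11.00 in AICAR-treated adipocytes, and 11.90, 12.05 and 11.18 in fibroblasts. The adenine adipocyte array was the lowest of the 6 and 3.36-fold under its control. Col1a2, the other chain of type I, read 12.04, 10.58 and 11.82 in adipocytes and 12.44, 12.61 and 11.89 in fibroblasts, and was 2.75-fold under its control. Col3a1, whose protein shares fibrils with type I, read 11.55, 9.92 and 11.37 in adipocytes and 11.67, 11.90 and 10.50 in fibroblasts, with a difference of 3.11-fold. In each of these 3 genes the adenine array of adipocytes was the lowest and the adenine array of fibroblasts the highest.

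Types V and XI are minor fibrillar collagens that sit within the fibril and limit its width. Col11a1 read 8.00, 6.59 and 7.41 in adipocytes (control, adenine, AICAR) and 8.14, 8.65 and 6.90 in fibroblasts, and was 2.66-fold lower with adenine in adipocytes. Col5a2 read 8.90, 8.02 and 8.72 in adipocytes and 9.57, 9.97 and 9.19 in fibroblasts, a difference of 1.83-fold with adenine in adipocytes. Col5a1 read 8.24, 7.53 and 7.99 in adipocytes and 8.26, 8.34 and 7.51 in fibroblasts. Col5a2 lies next to Col3a1 on chromosome 1, with 24624 bases between their records, and of the 2 only Col3a1 passed 2-fold with adenine in adipocytes. The other tested fibrillar chains (Col2a1, Col5a3, Col11a2 and Col27a1) varied by at most 0.45 over the 6 arrays. With adenine against control in adipocytes, 4 of the 10 tested fibrillar genes were at least 2-fold lower, where 2.4% of all tested genes were. Their median difference was -0.79, against 0.02 for all tested genes.

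Col12a1, a FACIT collagen that binds type I fibrils, was the widest of its class, and lies at GRCm38.p6 chr9:79598987-79721141. It read 8.08, 6.44 and 7.93 in adipocytes and 7.80, 8.98 and 7.85 in fibroblasts. With adenine it was 3.11-fold lower in adipocytes and 2.28-fold higher in fibroblasts, so its 2 adenine arrays were at opposite ends. Of the other FACIT chains with adenine in adipocytes, Col16a1 was at -0.44 and the rest were nearer 0.

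The 250 bases before the starts of Col1a2, Col3a1 and Col11a1 are shown because, of the 5 genes past 2-fold on the adenine adipocyte array, these 3 matched the promoter table. Col1a1 and Col12a1 did not match. They come from RefSeq (GRCm38.p6, plus strand), Col1a2 at chr6:4505368-4505617, Col3a1 at chr1:45311288-45311537 and Col11a1 at chr3:114030290-114030539. Capitals mark the motifs CCAAT and GGGCGG and the motif TATAAA, each searched on both strands.
Col1a2: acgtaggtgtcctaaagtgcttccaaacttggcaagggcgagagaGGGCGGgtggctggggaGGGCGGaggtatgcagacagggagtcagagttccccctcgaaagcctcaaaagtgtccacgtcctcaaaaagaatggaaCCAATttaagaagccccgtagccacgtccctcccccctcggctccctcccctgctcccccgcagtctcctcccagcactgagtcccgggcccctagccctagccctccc
Col3a1: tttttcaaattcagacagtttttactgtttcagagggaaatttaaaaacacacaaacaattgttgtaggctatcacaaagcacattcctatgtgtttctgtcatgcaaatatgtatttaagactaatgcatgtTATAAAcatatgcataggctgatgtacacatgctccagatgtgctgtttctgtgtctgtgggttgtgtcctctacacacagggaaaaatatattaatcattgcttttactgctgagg
Col11a1: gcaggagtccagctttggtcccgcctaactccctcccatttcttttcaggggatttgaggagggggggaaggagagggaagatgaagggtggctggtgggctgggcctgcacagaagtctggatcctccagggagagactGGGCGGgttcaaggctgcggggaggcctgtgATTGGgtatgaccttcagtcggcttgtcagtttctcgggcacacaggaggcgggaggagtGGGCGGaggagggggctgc
Col1a2 had GGGCGG at 205 and 188 bases and CCAAT at 109 bases before the start. Col11a1 had GGGCGG at 110 and 19 bases and ATTGG at 79 bases before the start used here, 114030540. Its gene record begins earlier, at 114030479, so the GGGCGG at 19 bases is inside that record. Col3a1 held neither of these and had TATAAA 117 bases before its start. These 3 genes thus shared no one of the 3 motifs in this window. Of the 44 collagens, 35 matched the promoter table. CCAAT was in 12 of the 35 (34.3%) and in 34.5% of all 27025 promoters, and TATAAA in 5 (14.3%) against 13.0%. GGGCGG was in 21 of the 35 (60.0%) against 32.9%. A match of letters is not a bound site.

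Lower values on the adenine adipocyte array extended over most of the family. Of the 33 tested collagens 31 were below control there, with a median of -0.33 against 0.02 for all tested genes. Of all tested genes, 2177 of the 4985 with a mean at or above 7.69 and 2557 of the other 4984 were below control. On that array 18 of the 33 collagens had their lowest level of all 6 arrays, against 23.6% of all tested genes. Among the 9969 genes below the floor the median was also under 0, at -0.13, and it was -0.25 for the 11 dim collagens. For 11 tested collagens with a mean at or above 7.69, the 75th percentile of gene means, the median was -0.71 and all 11 were below 0, while all genes past that level had a median of 0.05. Markers of cell state moved on the same array. The 8 tested fibroblast and preadipocyte markers were all below control, 6 of them by 2-fold. The mean of all 9 on the array, tested or not, was 8.32 against 9.50 in control adipocytes and 10.41 in control fibroblasts. The 10 adipocyte markers had a mean of 10.71 against 9.82. Their part in the collagen result was not tested. In RNA from whole cultures, fewer fibroblast-like cells and less collagen RNA per cell cannot be told apart.

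**Figure D2:**
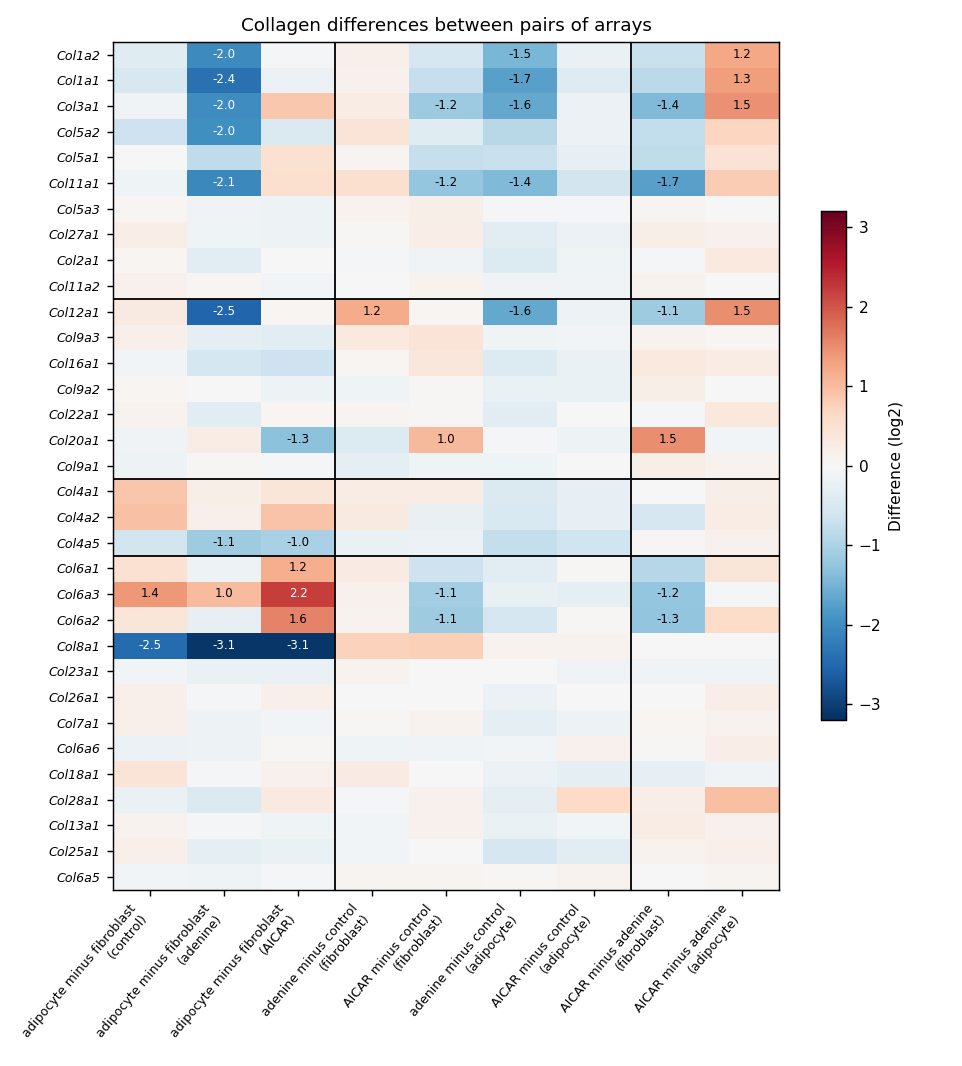
Log2 difference in signal (colour, blue lower and red higher) of the 33 tested collagen genes (y axis, in the order fibrillar, FACIT, basement membrane, other) in 9 pairs of arrays (x axis), with the value printed where it is at least 1 in size. The column for adenine against control in adipocytes holds 5 printed values, all negative, and the column for AICAR against control in adipocytes holds 0.

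Adenine left most collagens near control in fibroblasts. Of the 33, 1 was at least 2-fold higher, Col12a1, where 0.0802% of all tested genes were, and 0 were lower, where 0.0502% were. Col8a1 was 1.67-fold and Col11a1 1.43-fold higher. Of the 33 genes 23 were above control, with a median of 0.09 against -0.01 for all tested genes. Of all tested genes, 2394 of the 4985 with a mean at or above 7.69 and 2376 of the other 4984 were above control. All 11 of the brighter collagens were above control, by 0.08 to 1.19 log2 units, with a median of 0.23, against -0.01 for all genes of that brightness.

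In fibroblasts given AICAR, 4 collagens were at least 2-fold lower than control, where 3.69% of all tested genes were, and 1 was higher, where 1.7% were. The 4 were Col11a1 (2.36-fold), Col3a1 (2.26-fold), Col6a2 (2.22-fold) and Col6a3 (2.16-fold). Type I chains were lower by less than 2-fold, at 1.66-fold for Col1a1 and 1.46-fold for Col1a2. Col6a1, the remaining bright type VI chain, was at -0.65. Col20a1, a FACIT chain, was the one above 2-fold, at 2.06-fold. It read 7.20 on that array and between 5.72 and 6.16 on the other 5, near the floor. Col8a1 was 1.68-fold higher, close to its value with adenine.

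The median of all 33 collagens with AICAR in fibroblasts was 0.01, against -0.03 for all tested genes, while the 11 brighter collagens had a median of -0.65, with 9 of the 11 below control, against -0.06. Col4a1, at 0.23, and Col12a1, at 0.06, were the exceptions. Among all 4985 genes of that brightness, 2738 were below control. The 9 fibroblast and preadipocyte markers had a mean of 9.67 on this array and 10.41 on its control. Of the 8 tested, 5 were below control, 4 of them by 2-fold (Dlk1 -2.45, S100a4 -2.28, Thy1 -1.19 and Acta2 -1.13), and 3 were above it (Pdgfrb 0.40, Pdgfra 0.16 and Vim 0.14). Of the 9 tested adipocyte markers, 6 were above control, led by Fabp4 at 1.65 and Pparg at 0.96. The other 3 were below it (Adipoq -0.37, Cebpa -0.18 and Plin1 -0.01), and the median of the 9 was 0.24. The mean of all 10 on the array was 6.44 against 6.12. Of the 4 leukocyte markers Cd68 was at 1.49 and the other 3 were below the floor. Their part was not tested.

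In adipocytes that had received AICAR, 0 of the 33 collagens were 2-fold higher and 0 were 2-fold lower than control, where 0.612% and 0.381% of all tested genes were. Col28a1, a von Willebrand domain collagen near the floor, was the highest, at 0.65, and Col4a5 the lowest, at -0.64. All 10 fibrillar genes were below control, with a median of -0.18, and 26 of all 33 collagens were, with a median of -0.15 against -0.01 for all tested genes. Of all tested genes, 2410 of the 4985 with a mean at or above 7.69 and 2837 of the other 4984 were below control.

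**Figure D3:**
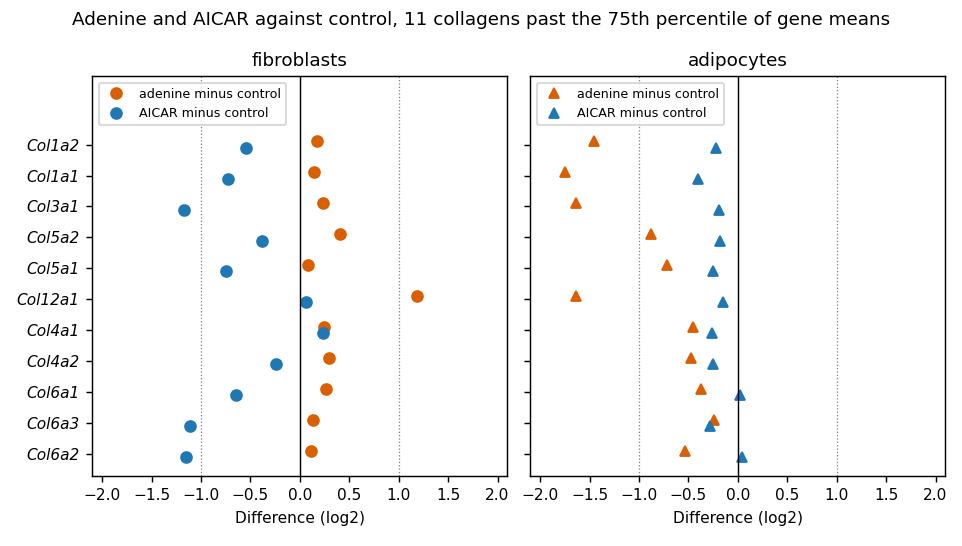
Log2 difference from the control array of the same state (x axis, dotted lines at 2-fold) for the 11 collagens with a mean at or above 7.69 (y axis), adenine in orange and AICAR in blue, fibroblasts on the left and adipocytes on the right. All 11 orange points are above 0 in fibroblasts and below 0 in adipocytes.

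Adenine and AICAR were given at the same dose, 0.5 mM, for the same 3 days, so their arrays can be set against each other within each state. The 2 molecules differ in structure in that adenine is a free base and AICAR a ribonucleoside of an imidazole carboxamide. With 1 array each, the differences have no test and no interval. In fibroblasts, AICAR gave 5 collagens at least 2-fold lower than adenine did, where 3.89% of all tested genes were, and 1 higher, where 1.59% were. The 5 were Col11a1 (3.36-fold), Col3a1 (2.65-fold), Col6a2 (2.39-fold), Col6a3 (2.37-fold) and Col12a1 (2.19-fold), and the 1 was Col20a1 (2.80-fold). In adipocytes, 4 collagens were higher with AICAR, where 2.21% of all tested genes were, and 0 lower, where 1.21% were. These were Col12a1 (2.80-fold), Col3a1 (2.73-fold), Col1a1 (2.54-fold) and Col1a2 (2.35-fold). Of the 11 brighter collagens all 11 were lower with AICAR than with adenine in fibroblasts (median -0.87), and 10 were higher in adipocytes (median 0.58), all but Col6a3, at -0.04. Among all 4985 genes of that brightness, 2692 were lower in fibroblasts (median -0.04) and 2231 were higher in adipocytes (median -0.03). Over all tested collagens the medians were -0.01 and 0.19, against -0.01 and -0.03 for all tested genes.

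Averaged over both states by the additive model in limma, no collagen passed an adjusted p of 0.05 for adenine against control, AICAR against control or AICAR against adenine, in either direction (0% of all tested genes in each). At an unadjusted p under 0.05, limma gave 27 higher genes (0.271% of all tested genes) and 35 lower (0.351%) for adenine. For AICAR it gave 104 (1.04%) and 122 (1.22%), and for AICAR against adenine 173 (1.74%) and 251 (2.52%). Among collagens the count was 1 in all, Col28a1, at 0.58 for AICAR against adenine (SE 0.230, limma adjusted p = 0.863). The model takes 1 value per compound for both states. For AICAR against adenine, where the 2 states lay on opposite sides, it gave 0.18 for Col12a1 (SE 0.683, limma adjusted p = 0.967) and 0.02 for Col3a1 (SE 0.633, limma adjusted p = 0.997). A test of that difference between states could not be fitted with 1 array per condition.

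The remaining tested collagens differed by less than 2-fold in all 9 pairs. Col16a1, a FACIT chain, read 7.05, 7.10 and 7.42 in fibroblasts and 6.96, 6.52 and 6.76 in adipocytes, without overlap. Col23a1, a transmembrane collagen, read 6.84, 6.95 and 6.83 in fibroblasts and 6.75, 6.73 and 6.63 in adipocytes, also without overlap but over a range of 0.32. Col18a1, whose C-terminal fragment is endostatin, was at 0.42 in adipocytes against fibroblasts without compound. The cartilage chains Col2a1, Col9a1, Col9a2, Col9a3 and Col11a2 varied by at most 0.45, and Col5a3, Col6a5, Col6a6, Col7a1, Col13a1, Col22a1, Col25a1, Col26a1 and Col27a1 by at most 0.53.

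Genes of the steps that make and handle collagen were taken as 6 lists, of which 51 of 57 genes were on the array and 41 were tested. The steps are hydroxylation and glycosylation of the chains, folding and export, removal of propeptides, cross-linking, receptors and uptake, and the supply of proline and glycine. In adipocytes with adenine, 5 of the 41 were at least 2-fold lower (12.2%, against 2.4% of all tested genes) and 0 were higher, against 1.24%. Of the 41, 32 were below control, with a median of -0.34 against 0.02 for all tested genes. Lox, the oxidase that starts cross-linking, was the lowest at -1.63. It read 12.04, 10.41 and 11.60 in adipocytes and 12.02, 12.38 and 12.40 in fibroblasts, lowest on the adenine adipocyte array like Col1a1. Adamts14, which removes N-propeptides, was at -1.54 and Pcolce, an enhancer of C-propeptide removal, at -1.47. Mrc2, an uptake receptor for collagen, was at -1.22 and Sec24d, a coat protein of export vesicles, at -1.09. Of the 13 tested hydroxylation and glycosylation genes 0 passed 2-fold, with a median of -0.34 and P4ha3, a prolyl hydroxylase subunit, lowest at -0.96. Itga1, a collagen-binding integrin, was at 0.60.

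In fibroblasts with AICAR, 8 of the 41 were at least 2-fold lower (19.5%, against 3.69%) and 0 were higher, against 1.7%. Hydroxylation and glycosylation genes held 4 of the 8, led by P4ha1, a prolyl 4-hydroxylase subunit, at -1.50 and Crtap, of the prolyl 3-hydroxylation complex, at -1.46, while P4ha2, another 4-hydroxylase subunit, was at 0.82. Pcolce was at -1.49 and read 10.29, against 11.78 in control and 11.91 in adenine-treated fibroblasts. Serpinh1, the collagen chaperone HSP47, was at -1.07. For the supply of amino acids, Aldh18a1, which starts proline synthesis, was at -1.59 and Shmt2, a mitochondrial enzyme that makes glycine, at -1.26. Of the 4 cross-linking genes 0 passed 2-fold, with a median of 0.09.

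With adenine in fibroblasts, 0 of the 41 passed 2-fold, where 0.0802% of all tested genes were higher and 0.0502% lower. With AICAR in adipocytes 1 was lower (2.44%, against 0.381%) and 0 were higher, against 0.612%. Between states, 4 were lower in adipocytes without compound (9.76%, against 4.27% of all tested genes), 16 with adenine (39.0%, against 8.47%) and 2 with AICAR (4.88%, against 4.6%). With AICAR 3 were higher, where 5.93% of all tested genes were, and without compound and with adenine 0 were, where 2.88% and 6.75% were. The limma model of state gave 5 of the 41 lower and 0 higher at an adjusted p under 0.05, where 5.37% and 5.22% of all tested genes were. Without the control arrays it called 0 genes of any kind, so none of the 5 calls held. These were the cross-linking genes Loxl3 (-1.60, SE 0.210, limma adjusted p = 0.0152) and Loxl4 (-1.21, SE 0.248, limma adjusted p = 0.0385), Sec24d (-1.12, SE 0.237, limma adjusted p = 0.0424), Anxa5 (-0.96, SE 0.147, limma adjusted p = 0.0207), a collagen-binding annexin, and Colgalt1 (-0.72, SE 0.139, limma adjusted p = 0.0341), which adds galactose to hydroxylysine. Loxl4 read 7.19, 6.95 and 6.36 in fibroblasts and 5.72, 5.30 and 5.84, under the floor, in adipocytes, so it too passed the filter through fibroblasts alone. For either compound 0 of the 41 passed.

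**Figure D4:**
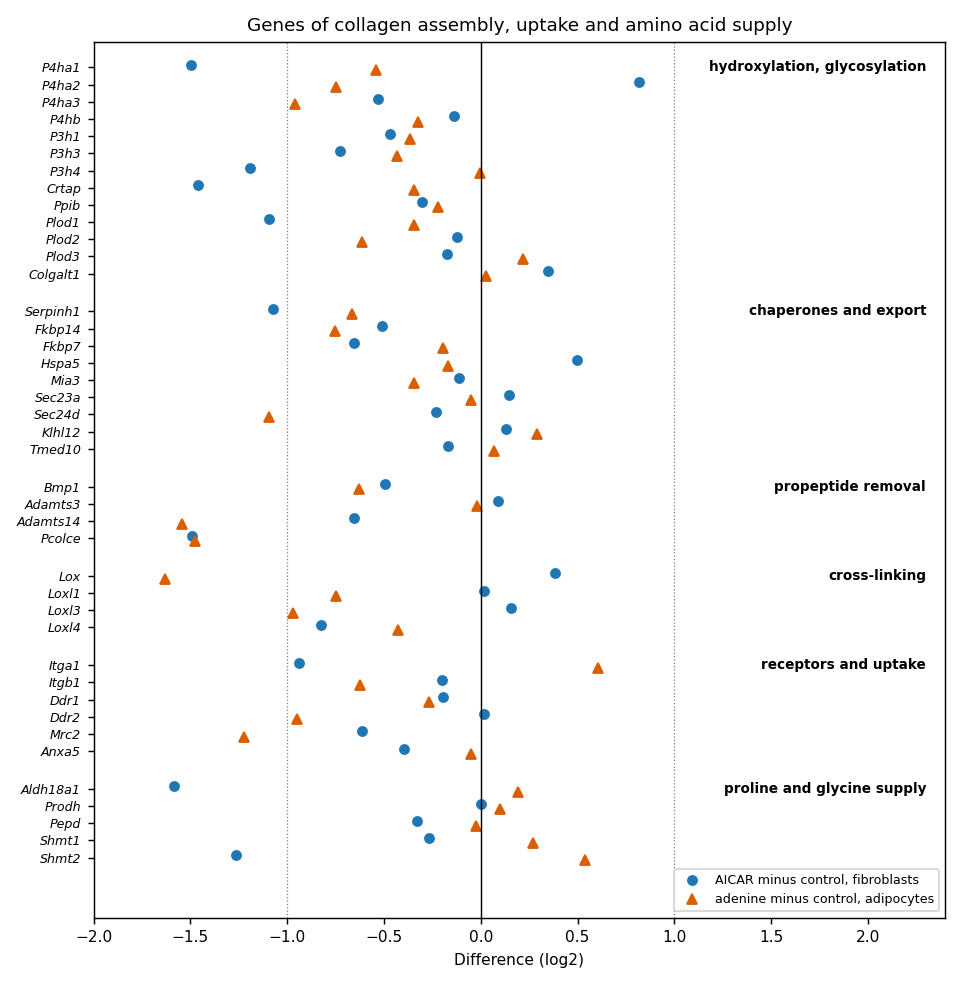
Log2 difference from the control array (x axis, dotted lines at 2-fold) of 41 tested genes that make and handle collagen (y axis, in 6 lists), for AICAR in fibroblasts (blue circles) and adenine in adipocytes (orange triangles), 1 array against 1. Aldh18a1 has the lowest circle, at -1.59, and Lox the lowest triangle, at -1.63.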

How the data were processed

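Total RNA was labelled with biotin for Affymetrix arrays, per the labels. The authors deposited log2 signals of 35556 probe sets, and the submitters' processing notes name Transcriptome Analysis Console 1.0.0.234 and build mm10. How background, normalization and probe summary were handled is not given in the sources used here, and the values were used as deposited. Probe sets with 1 symbol in the platform annotation (21789) were kept, those with several (1621) or none left out, and the highest mean was taken per symbol. A 2-fold difference is 1 on the log2 scale. The additive model used limma 3.58.1 in R 4.3.3 (2 residual and 3.64 prior degrees of freedom) with Benjamini-Hochberg adjustment over 9969 genes. It was also run on simulated data with additive changes and independent noise, which do not cover departures from additivity. The labels name no separate cultures or batches. The number of arrays limits the precision. Members, classes and lists were chosen with earlier results of these data known. Every collagen was named at least once, with the 3 highest and 3 lowest past 2-fold per comparison. From each other list, genes were named among its 2 highest and 2 lowest. Markers and the 5 list genes that passed the state model were named after their values were seen. Promoters came from RefSeq, and protein sequences were not analysed here. Alternatives were quantile normalization, median centring, levels raised to the floor, other filters, the mean of probe sets and leaving out each pair of arrays.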

Additional observations from a re-analysis of the deposited data

Results flagged for a closer look

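Some collagens moved in opposite directions in the 2 cell states under the same contrast. Each value is 1 array against 1, and the difference between states was not tested. For Col12a1, adenine minus control was 1.19 log2 units in fibroblasts and -1.64 in adipocytes, and AICAR minus adenine was -1.13 and 1.49. For Col3a1, AICAR minus adenine was -1.41 in fibroblasts and 1.45 in adipocytes. Each of these pairs shares its adenine arrays with the others.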

How the results depend on the processing

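With the filter at the 75th percentile of gene means, 11 collagens remained in the comparisons and 22 dropped out, Col4a5, Col8a1, Col11a1 and Col20a1 among them, and collagens 2-fold lower between states went from 1 to 0 without compound, from 8 to 5 with adenine and from 3 to 0 with AICAR. Under it, collagens 2-fold higher with AICAR in fibroblasts went from 1 to 0 against control and from 1 to 0 against adenine, and the state model gave 0 lower in place of 2. With quantile normalization, collagens higher in adipocytes with adenine went from 1 to 0 (Col6a3 was at 1.01). Leaving out 1 pair of arrays in turn, the state model gave 0 to 1 collagens higher and 0 to 1 lower. It called 0 genes of any kind without the control pair. Median centring moved the median of the 33 collagens from 0.07 to -0.00 between control states and from 0.01 to -0.03 with AICAR in fibroblasts, and the split of all genes past 2-fold with adenine in adipocytes from 239 lower and 124 higher to 202 and 167. The labels give no replicate numbers, and the model of state sets the arrays of the same medium against each other. Signals near the floor of 5.87 limit what can be read for Col8a1 in adipocytes and for Col20a1.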
